A study of Mus musculus with 32 samples.

Results

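The response to potassium depolarization was measured in the neurites (axons and dendrites) of mouse hippocampal neurons that had lost Mettl3, the catalytic subunit of the nuclear complex that writes N6-methyladenosine (m6A) on mRNA. It rests on 4 RNA-seq libraries of 32 RNA-seq and DART-seq libraries in the series and of 16 RNA-seq libraries, namely Mettl3 KO Neurite Ctrl replicates 1 and 2 and Mettl3 KO Neurite KCl replicates 1 and 2, chosen by their labels. Neurons came from single newborn litters of Mettl3 flox/flox mice, with the tissue of the animals pooled and both sexes mixed. They were grown on porous inserts, so that neurites could be collected from the lower face of the membrane. Soma came from the upper face, which can also hold neurites. AAV-hSyn-Cre was added at day 7 in culture at 50000 vector genomes per cell. The promoter is neuronal, so glia in the cultures were not targeted. WT cultures from C57BL/6 mice received the same virus, so both genotypes expressed Cre. All cultures were silenced with 1 µM TTX and 50 µM D-AP5 for 16 h from day 14. KCl cultures then received 55 mM KCl for 2 h at day 15, and Ctrl cultures were left untreated. For 2 comparisons the 4 WT neurite libraries and the 4 Mettl3 KO soma libraries were also used. Total counts were 50431597 and 34969090 in the Ctrl libraries and 56659328 and 33789183 in the KCl libraries, within 33789183 to 71394235 for the 16 RNA-seq libraries.

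Depolarization opens voltage-gated calcium channels, and the calcium signal reaches the nucleus in part through kinases that phosphorylate CREB and SRF cofactors. These factors switch on immediate early genes, of which Fos, Egr and Nr4a members and Npas4 encode transcription factors, while Arc, Bdnf and others encode proteins that act at synapses. Some of these mRNAs, Arc above all, travel into dendrites. How early-response mRNA came to be in the neurite fraction was not tested. One of the regulatory sequences through which CREB acts is the cAMP response element (CRE), with the letters TGACGTCA, of which TGACG is the half-site.

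The promoters of 5 early-response genes are shown as examples of members called by DESeq2 and of differing roles (3 transcription factor families and a secreted pathway enzyme), chosen after their values were seen, and the CRE half-site stands in capitals on either strand (TGACG or its reverse complement CGTCA; overlapping matches merge into one run). The sequences are from RefSeq, build GRCm38.p6, on the strand of the gene, at chr15:101266603-101266820 (+ strand) for Nr4a1, chr2:57124097-57124216 (- strand) for Nr4a2, chr19:4990084-4990203 (- strand) for Npas4, chr12:85473735-85473854 (+ strand) for Fos and chr13:75089735-75089854 (+ strand) for Pcsk1.
Nr4a1: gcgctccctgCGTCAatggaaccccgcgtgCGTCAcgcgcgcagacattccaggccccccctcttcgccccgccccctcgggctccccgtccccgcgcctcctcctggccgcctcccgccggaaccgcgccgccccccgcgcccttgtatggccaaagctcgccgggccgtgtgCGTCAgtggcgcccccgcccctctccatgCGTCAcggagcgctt
Nr4a2: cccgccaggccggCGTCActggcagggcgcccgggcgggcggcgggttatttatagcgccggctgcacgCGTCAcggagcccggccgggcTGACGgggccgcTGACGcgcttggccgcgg
Npas4: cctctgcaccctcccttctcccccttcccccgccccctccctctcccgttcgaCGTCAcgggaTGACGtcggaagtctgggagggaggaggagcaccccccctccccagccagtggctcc
Fos: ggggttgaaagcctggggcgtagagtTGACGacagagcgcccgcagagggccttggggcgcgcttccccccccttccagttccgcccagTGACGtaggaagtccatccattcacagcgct
Pcsk1: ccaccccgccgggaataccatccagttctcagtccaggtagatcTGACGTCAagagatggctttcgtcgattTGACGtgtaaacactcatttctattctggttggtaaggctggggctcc
The window searched ran from 250 bases before to 50 after each start. Nr4a1 held 4 half-sites, Nr4a2 4, Npas4 2, Fos 2 and Pcsk1 3, of which a pair at -78 and -75 formed a full CRE. Fosb and Atf3 held 1 each, Gadd45g held none, and Arc had no entry in the table. Among several promoters of Bdnf, only the promoter with a site at -35 held a half-site, and some promoters of Egr2 held none. The half-site was found in 20.8% of all 32851 promoters of the table and in 28.4% of the 15297 promoters of protein-coding genes tested. It was found in all 8 promoters of the 7 matched genes of the 12-member list of Nr4a receptors, Npas4 and cAMP-responsive factors. Because that list was named partly for response to cAMP, its share is no separate result. The AP-1 and Atf3 list held the half-site in 7 of 11 promoters, 63.6%. Other early lists had it in 66.7% of 18 promoters (Egr, Klf and Ier) and 37.5% of 24 (growth arrest and kinase feedback). Effector lists had it in 50% of 22 (secreted and neuropeptide) and 26.9% of 26 (synaptic and cytoskeletal). The half-site was also in 57.7% of 26 heat shock and cochaperone promoters and 50% of 4 oligodendrocyte lineage marker promoters. Among protein-coding genes with both KCl libraries at least 2-fold above both Ctrl libraries, 44.1% of 338 promoters held it. Among those at least 2-fold below, 25.8% of 66 promoters did. Only 270 of 346 and 54 of 74 genes were matched, and promoters of the same gene were counted separately. By gene the shares were 50.0% and 27.8%, beside 32.8% of the matched protein-coding genes tested. Lists that lay lower in KCl varied. The share was 42.7% of 75 cytosolic ribosomal protein promoters, 34.6% of 78 nuclear respiratory chain promoters and 21.1% of 19 dendritic mRNA promoters. The full CRE was found in 6.51% of the 338 promoters, 3.03% of the 66 and 2.77% of the protein-coding promoters tested. These are descriptions of letters in a window and not of bound sites.

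The 4 libraries were first checked against their labels. Mettl3 was at 3.66 and 6.31 CPM (counts scaled to library size) in the Mettl3 KO Ctrl neurites, at 7.37 and 3.77 CPM in the Mettl3 KO KCl neurites and at 8.40 to 11.4 CPM in the 4 WT neurite libraries. The KO libraries lay below all WT libraries. Cre removes a single exon of this gene, so counts over the whole gene check the deletion only in part.

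KCl replicate 1 held far more RNA of non-neuronal cells than the other 3 libraries, in the summed CPM of marker lists. Oligodendrocyte lineage markers summed to 185 and 129 CPM in Ctrl, 6909 CPM in KCl replicate 1 and 93.3 CPM in KCl replicate 2. No member of these lists was at 0 in any of the 4 libraries. All 7 oligodendrocyte, 7 microglia, 11 astrocyte, 12 fibroblast and vascular and 16 cell cycle genes were higher in KCl replicate 1 than in KCl replicate 2. Astrocyte markers summed to 6503 and 2854 CPM in Ctrl and 18425 and 2736 CPM in KCl. Microglia markers summed to 19.7 and 51.2 CPM in Ctrl and 282 and 56.0 CPM in KCl, fibroblast and vascular markers to 169 and 66.5 against 747 and 44.3 CPM, and cell cycle genes to 49.8 and 68.0 against 738 and 102 CPM. Neuron markers ran the other way, at 3381 and 3778 CPM in Ctrl, 933 CPM in KCl replicate 1 and 5852 CPM in KCl replicate 2, and each of the 10 was higher in KCl replicate 2. In bulk RNA, fewer cells of a type and less RNA per cell cannot be told apart. The soma library of the same insert shared the pattern, with oligodendrocyte markers at 3741 CPM against 89.7 to 113 CPM in the other 3 Mettl3 KO soma libraries. Values are therefore given for each library below, and the part of these cells in each difference was not tested.

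**Figure D1:**
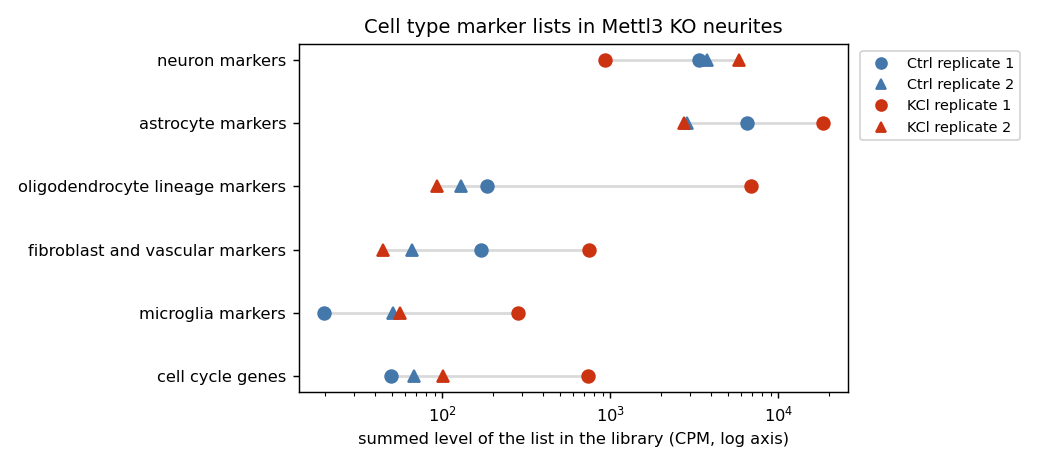
Summed CPM of 6 marker lists (log axis) in the 4 Mettl3 KO neurite libraries, 1 point per library. KCl replicate 1 stands at 6909 CPM for oligodendrocyte lineage markers and 933 CPM for neuron markers, while KCl replicate 2 stands at 93.3 and 5852 CPM.

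Across the 22199 genes that averaged 10 counts or more, no gene passed the edgeR quasi-likelihood test at 2-fold and an adjusted p of 0.05 (0% called, smallest adjusted p = 0.727). At an unadjusted p of 0.05 and 2-fold, 826 genes were higher in KCl (3.72% of those tested) and 229 lower (1.03%). The DESeq2 Wald test on the same counts called 275 genes higher (1.24%) and 8 lower (0.036%) after adjustment. Both KCl libraries lay at least 2-fold above both Ctrl libraries for 494 genes (2.23%) and at least 2-fold below for 227 (1.02%). Without KCl replicate 1, edgeR called 248 of 21343 genes higher (1.16%) and 4 lower (0.0187%), a fit in which the remaining KCl library is assumed to vary as the Ctrl libraries do. Without KCl replicate 2 it called 3682 higher and 2529 lower, with KCl replicate 1 as the remaining library. The replicates differed much more under KCl: the SD over genes of the log2 ratio of replicate 1 to 2 was 1.22 for KCl and 0.49 for Ctrl. With 2 libraries in each group an exact permutation test of a single gene cannot go below p = 0.333. Genes are described as higher or lower here, with the DESeq2 adjusted p or the p from edgeR's quasi-likelihood fit before adjustment (called unadjusted p).

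Many members of the early-response lists were higher in both KCl libraries. Of 60 tested members of 4 lists (AP-1 and Atf3 factors; Egr, Klf and Ier regulators; Nr4a receptors, Npas4 and cAMP-responsive factors; growth arrest and kinase feedback), 37 were higher at an unadjusted p of 0.05 and 2-fold and none was lower, beside 3.72% of all genes. DESeq2 called 29 of the 60 higher, edgeR without KCl replicate 1 called 37, and in 32 both KCl libraries lay at least 2-fold above both Ctrl libraries. The median log2 change was 3.85 in the AP-1 list, 2.57 in the Egr list, 2.00 in the Nr4a list and 1.41 in the growth arrest list. Over all genes tested it was 0.07. In that order, the list medians were 2.67, 1.83, 1.60 and 0.54 in the replicate 1 libraries, beside 0.06 over all genes. In the replicate 2 libraries they were 4.40, 2.64, 2.25 and 1.97, beside -0.01. The lists were chosen with earlier results of these data known.

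**Figure D2:**
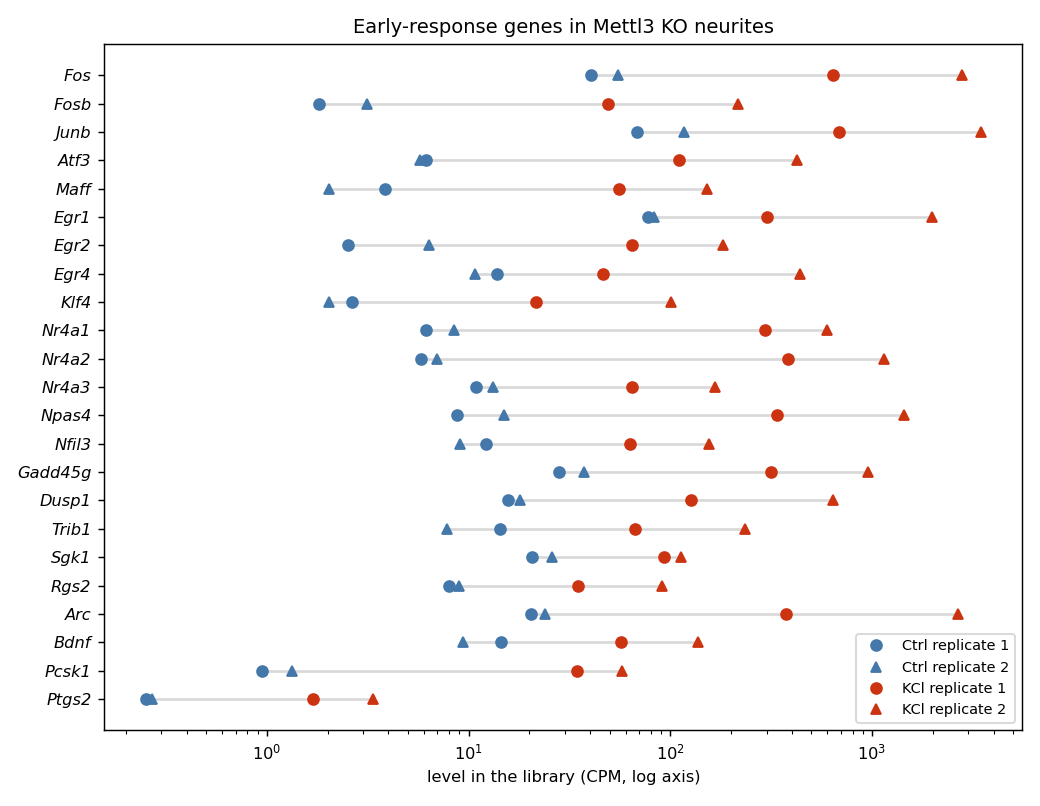
CPM (log axis) of 23 early-response genes in the 4 Mettl3 KO neurite libraries, 1 point per library, with a grey line over the range. For each gene both KCl points lie to the right of both Ctrl points, and KCl replicate 2 is above KCl replicate 1.

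Nr4a2, an orphan nuclear receptor, showed the largest difference of the early lists. It was at 5.79 and 6.99 CPM in Ctrl and at 385 and 1145 CPM in KCl. The log2 change was 6.90 ± 0.77 (SE), with an unadjusted p of 0.000218 and a DESeq2 adjusted p of 2.31e-19. Nr4a1, its relative, was at 6.16 and 8.43 CPM in Ctrl and 295 and 597 CPM in KCl. Its log2 change was 5.93 ± 0.59 (DESeq2 adjusted p = 3.82e-18), and it had the second smallest unadjusted p of any gene that averaged 100 counts or more and separated the groups 2-fold, after Pcsk1. Nr4a3 was at 10.9 and 13.1 CPM in Ctrl and 64.4 and 167 CPM in KCl (log2 change 3.26). All 3 receptors separated the groups, and KCl replicate 2 was above KCl replicate 1 in each. Npas4, a neuron-specific factor that responds to calcium, was at 8.74 and 14.9 CPM in Ctrl and 336 and 1435 CPM in KCl (log2 change 6.23 ± 0.95, DESeq2 adjusted p = 1e-11). Nfil3, a bZIP repressor, was at 12.2 and 9.03 CPM in Ctrl and 63.2 and 155 CPM in KCl (log2 change 3.36).

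The rest of that list was more modest. The clock gene Per1 was at 20.2 and 19.0 CPM in Ctrl and 46.2 and 93.9 CPM in KCl (log2 change 1.84, DESeq2 adjusted p = 0.113). Crem, which encodes cAMP-responsive activators and repressors, was at 11.2 and 4.88 CPM in Ctrl and 47.0 and 24.8 CPM in KCl (log2 change 2.16, DESeq2 adjusted p = 0.0816). Crem and Cebpd were the members higher in KCl replicate 1 than in replicate 2. In all, 8 of the 12 members were higher at an unadjusted p of 0.05 and 5 by DESeq2, beside 3.72% and 1.24% of all genes tested.

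Nearly all AP-1 members were higher. AP-1 is a dimer of Fos and Jun proteins. Fos was at 40.5 and 54.8 CPM in Ctrl and 639 and 2798 CPM in KCl. Its log2 change was 5.17 ± 0.90, with a DESeq2 adjusted p of 4.96e-08. Fosb was at 1.82 and 3.14 CPM in Ctrl and 49.0 and 218 CPM in KCl (log2 change 5.75 ± 0.92). Junb was at 68.5 and 117 CPM in Ctrl and 689 and 3455 CPM in KCl (log2 change 4.48). Atf3, a stress-responsive bZIP factor, was at 6.16 and 5.77 CPM in Ctrl and 110 and 427 CPM in KCl (log2 change 5.49, DESeq2 adjusted p = 7.07e-10). Maff, a small Maf partner of bZIP proteins, was at 3.84 and 2.03 CPM in Ctrl and 55.6 and 151 CPM in KCl (log2 change 5.14). Jun itself started high and moved less, at 308 CPM in both Ctrl libraries and 803 and 2225 CPM in KCl (log2 change 2.30, DESeq2 adjusted p = 0.0421). Jund was the exception of the 10, at 51.0 and 24.9 CPM in Ctrl and 20.3 and 53.8 CPM in KCl, where the groups overlap. The 9 others passed the unadjusted test, the DESeq2 test and the fit without KCl replicate 1.

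In the Egr, Klf and Ier list, 10 of 16 members were higher at an unadjusted p of 0.05 and 9 by DESeq2. Over all genes tested these shares were 3.72% and 1.24%. Egr2, a zinc finger factor, was at 2.54 and 6.37 CPM in Ctrl and 64.7 and 183 CPM in KCl (log2 change 4.80, DESeq2 adjusted p = 3.8e-07). Egr1 was at 77.5 and 83.2 CPM in Ctrl and 303 and 1985 CPM in KCl (log2 change 3.83). Egr4 was at 13.9 and 10.7 CPM in Ctrl and 46.4 and 437 CPM in KCl, a 9.42-fold gap between the KCl libraries. Klf4 was at 2.64 and 2.03 CPM in Ctrl and 21.7 and 101 CPM in KCl (log2 change 4.71). Klf6 differed in that KCl replicate 1 was the higher, at 23.7 and 27.8 CPM in Ctrl and 159 and 110 CPM in KCl (log2 change 2.38 ± 0.38). Klf2, Klf9, Klf10, Ier3, Ier5 and Ier5l did not pass, and Ier5 was at 37.0 and 14.9 CPM in Ctrl and 10.8 and 50.9 CPM in KCl.

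Feedback regulators of growth and kinase signalling were higher in 10 of 22 members at an unadjusted p of 0.05, beside 3.72% of all genes tested. Gadd45g, a stress sensor linked to growth arrest, was at 27.9 and 37.3 CPM in Ctrl and 315 and 950 CPM in KCl (log2 change 4.28, DESeq2 adjusted p = 1.15e-06). Dusp1, a phosphatase that turns off MAP kinases, was at 15.7 and 18.0 CPM in Ctrl and 126 and 641 CPM in KCl (log2 change 4.51). Trib1, a pseudokinase, was at 14.3 and 7.78 CPM in Ctrl and 66.5 and 236 CPM in KCl (log2 change 3.77). The kinase Sgk1 was among the members with the closest KCl replicates, at 20.6 and 26.0 CPM in Ctrl and 93.5 and 113 CPM in KCl (log2 change 2.14 ± 0.35). Cdkn1a, the p21 cell cycle inhibitor, was at 244 and 225 CPM in Ctrl and 312 and 249.4 CPM in KCl.

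Effector genes gave fewer differences. In the list of synaptic and cytoskeletal effectors, 7 of 23 were higher and 1 lower at an unadjusted p of 0.05. Over all genes tested, 3.72% were higher and 1.03% lower. Arc, whose protein forms capsid-like particles and promotes removal of AMPA receptors, was at 20.4 and 23.9 CPM in Ctrl and 373 and 2658 CPM in KCl. Its log2 change was 6.10 ± 1.13 (DESeq2 adjusted p = 5.93e-09), with a 7.13-fold gap between the KCl libraries. Slc2a3, the neuronal glucose transporter, was at 179 and 210 CPM in Ctrl and 385 and 1302 CPM in KCl (DESeq2 adjusted p = 0.129). Homer1, a scaffold of metabotropic receptors, overlapped at 31.6 and 18.7 CPM in Ctrl and 29.7 and 81.4 CPM in KCl. Rhob, a small GTPase gene, was at 69.2 and 56.3 CPM in Ctrl and 55.0 and 113 CPM in KCl, and its groups overlapped too. The lower member was Synpo, the spine apparatus protein synaptopodin, at 84.99 and 65.9 CPM in Ctrl and 21.6 and 41.6 CPM in KCl (log2 change -1.26, DESeq2 adjusted p = 0.503).

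Among 22 secreted and neuropeptide effectors, 4 were higher at an unadjusted p of 0.05, beside 3.72% of all genes tested. Pcsk1, the prohormone convertase that cleaves neuropeptide precursors, had the smallest unadjusted p of the genes that averaged 100 counts or more and separated the groups 2-fold. It was at 0.943 and 1.33 CPM in Ctrl and 34.5 and 57.8 CPM in KCl (log2 change 5.34 ± 0.53, unadjusted p = 0.000119, DESeq2 adjusted p = 6.72e-15). Bdnf, the neurotrophin, was at 14.4 and 9.35 CPM in Ctrl and 57.2 and 137 CPM in KCl (log2 change 3.03 ± 0.57, DESeq2 adjusted p = 0.00127). The remaining members were Inhba, an activin subunit (0.503 and 1.08 against 1.68 and 10.6 CPM), and Ptgs2, the inducible cyclooxygenase (0.252 and 0.271 against 1.70 and 3.37 CPM). Vgf, a granin-like precursor, overlapped, at 58.3 and 32.5 CPM in Ctrl and 53.6 and 263 CPM in KCl, and Nptx2, a pentraxin that clusters AMPA receptors, did so at 6.14 and 4.72 against 6.06 and 14.9 CPM. Without KCl replicate 1, edgeR called 7 members of the list higher, Vgf among them (adjusted p = 0.00418).

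Most early-response genes were higher in KCl replicate 2 than in replicate 1, as neuron markers were. The ratio of KCl replicate 2 to replicate 1 was 6.28 for the neuron marker sum and 0.0135 for the oligodendrocyte marker sum, beside a median over all genes tested of 0.964. On that ratio Arc stood at 7.13, Fosb at 4.44, Fos at 4.38, Npas4 at 4.27, Nr4a2 at 2.98, Nr4a1 at 2.02 and Pcsk1 at 1.67. Expressed per 100 CPM of summed neuron markers, Npas4 was at 0.259 and 0.395 in Ctrl and 36.1 and 24.5 in KCl, so replicate 1 was the higher KCl library on this scale. Arc was at 0.603 and 0.633 in Ctrl and 39.96 and 45.4 in KCl. Camk2a, the dendritic kinase mRNA, was at 101 and 129 in Ctrl and 126 and 70.1 in KCl. These ratios divide by genes that lie in neurites and soma alike, and were added after the values were seen. The divisor also includes Nefl, at 435 and 443 CPM in Ctrl and 318 and 1809 CPM in KCl. In WT neurites Nefl was at 539 and 761 CPM in Ctrl and 1000 and 1231 CPM in KCl. Tubb3, another of its markers, was there at 725 and 633 against 670 and 666 CPM. The divisor can thus differ with treatment, and its part in these ratios was not tested.

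**Figure D3:**
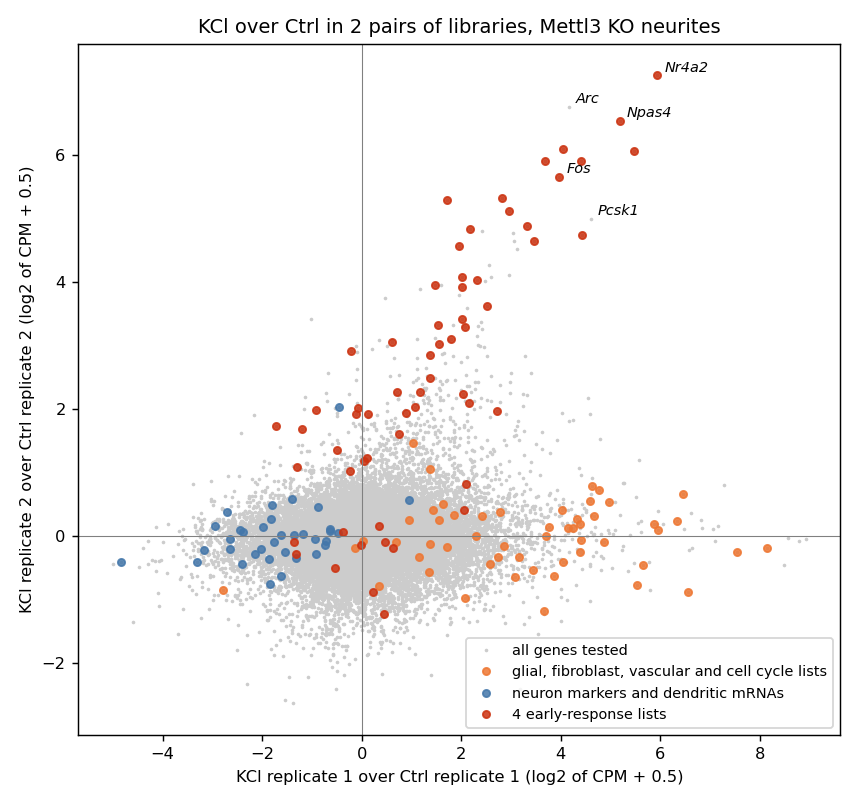
Log2 of KCl over Ctrl in the replicate 1 libraries (x axis) against the replicate 2 libraries (y axis), in CPM with 0.5 added, 1 point per gene; the axes share no library. Early-response genes lie mainly in the upper right. Glial, fibroblast, vascular and cell cycle genes lie to the right along 0, and neuron markers and dendritic mRNAs lie mainly to the left along 0.

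Taking the replicate 1 libraries and the replicate 2 libraries as separate ratios, 643 genes were at least 2-fold higher in KCl in replicate 2, and 342 of them (53.2%) were also at least 2-fold higher in replicate 1, where 19.8% of all genes were. Of the 4394 genes at least 2-fold higher in replicate 1, the 342 are 7.78%. Among 579 genes at least 2-fold lower in replicate 2, 105 (18.1%) were also lower in replicate 1, where 14.4% of all genes were. The numbers of the replicates tie no library of one group to one of the other by label.

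Besides the fixed lists, several genes chosen after their values were seen had both KCl libraries more than 2-fold above both Ctrl libraries. Leng8 was at 40.4 and 43.9 CPM in Ctrl and 281 and 230 CPM in KCl (log2 change 2.60, DESeq2 adjusted p = 0.000127). Ifrd1, an interferon-related developmental regulator, was at 11.8 and 10.8 CPM in Ctrl and 107 and 258 CPM in KCl (log2 change 4.01, DESeq2 adjusted p = 6.5e-07). Tnfrsf12a, the receptor of the cytokine TWEAK, was at 15.8 and 16.3 CPM in Ctrl and 73.8 and 80.2 CPM in KCl (log2 change 2.26). Plat, tissue plasminogen activator, was at 41.2 and 28.3 CPM in Ctrl and 223 and 275 CPM in KCl (log2 change 2.84). Each of these also passed the edgeR fit without KCl replicate 1. Of the 494 genes with both KCl libraries 2-fold above both Ctrl libraries, 346 were protein-coding, and KCl replicate 2 was above replicate 1 in 220.

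By the rule for the largest separating changes without a call, the leading genes were of another kind. Clca3a1 was at 0.0419 and 0.0271 CPM in Ctrl and 60.6 and 0.127 CPM in KCl, and Sox10, a marker of the oligodendrocyte lineage, at 0.0629 and 0.108 against 75.1 and 0.159 CPM. Their fitted log2 changes of 9.64 and 8.76 come from KCl replicate 1 alone, the library with the oligodendrocyte markers given above. Zfp488 and 2 predicted genes completed the 5. In the other direction, Adra2c, an adrenergic receptor gene, was at 13.1 and 6.61 CPM in Ctrl and 0.313 and 2.80 CPM in KCl, and Smarcd3, a chromatin remodelling subunit gene, at 67.2 and 14.1 against 3.49 and 10.5 CPM. Zfp786 (values given below), a ribosomal pseudogene and a predicted gene completed these.

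**Figure D4:**
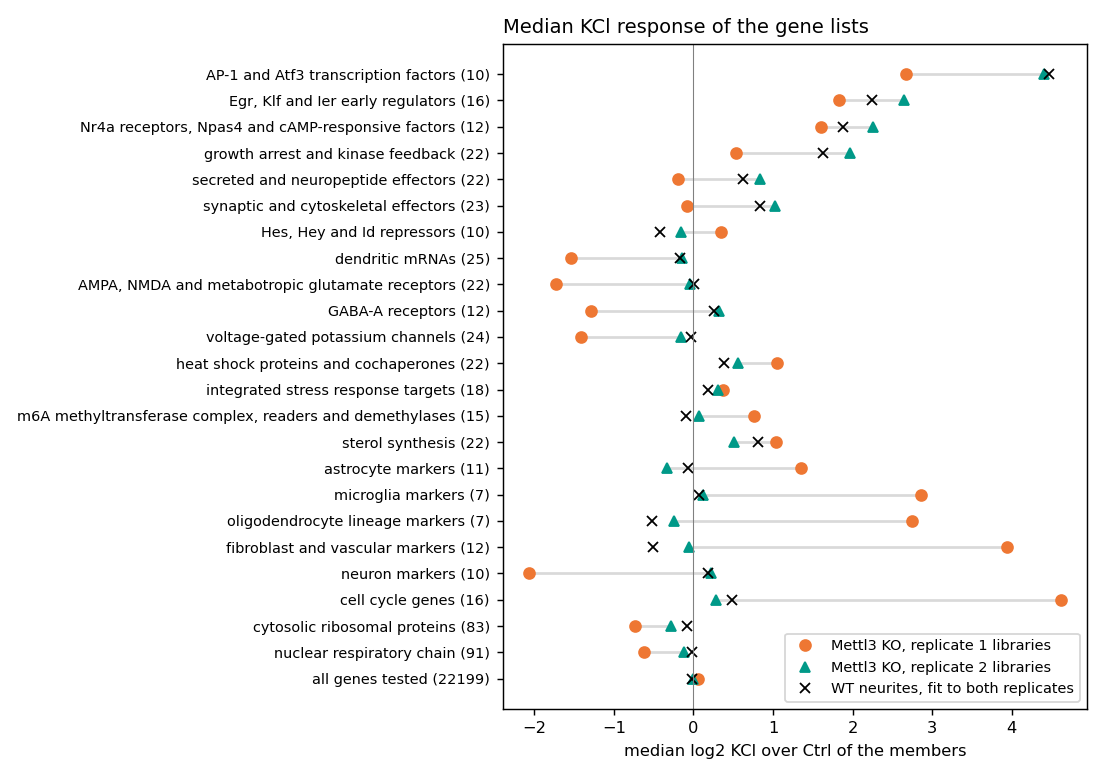
Median log2 KCl over Ctrl of the members of 23 gene lists and of all genes tested (member numbers in brackets), in the replicate 1 libraries (circles), in the replicate 2 libraries (triangles) and in WT neurites (crosses, fitted). The first 4 early-response lists lie above 0 in both pairs, while the glial, neuron and receptor lists lie far from 0 in the replicate 1 libraries and nearer 0 in the replicate 2 libraries.

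Over all genes tested, 3.72% were higher at an unadjusted p of 0.05 and 2-fold, and 1.24% by DESeq2. Beside that, several sterol synthesis enzymes and chaperones were higher. So were 11 of 16 cell cycle genes (9 by DESeq2) and 5 of 12 fibroblast and vascular markers (5 by DESeq2, and 1 was lower at the unadjusted limit), which were high in KCl replicate 1 as given above, and without that library edgeR called none of either list. Of 22 sterol synthesis genes, 10 were higher at an unadjusted p of 0.05, beside 3.72% of all genes tested, and none was lower. In 6 the KCl libraries lay 2-fold above the Ctrl libraries, beside 2.23% of all genes. Cyp51, lanosterol demethylase, was at 82.7 and 64.9 CPM in Ctrl and 404 and 350 CPM in KCl (log2 change 2.35 ± 0.38, DESeq2 adjusted p = 0.00132). Insig1, the sterol-regulated retention factor of the endoplasmic reticulum, was at 28.4 and 23.0 CPM in Ctrl and 125 and 120 CPM in KCl (log2 change 2.26 ± 0.34). Idi1, isopentenyl diphosphate isomerase, was at 24.6 and 16.7 against 111 and 72.1 CPM (log2 change 2.15). Unlike the early genes, the list median was 1.03 in the replicate 1 libraries and 0.50 in the replicate 2 libraries, and the sum of its members was 0.839 times as high in KCl replicate 2 as in replicate 1. Glia make sterols actively, and their part in this list was not tested; without KCl replicate 1, edgeR called 5 of the 22 higher.

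Of 22 heat shock proteins and cochaperones, 5 were higher at an unadjusted p of 0.05, beside 3.72% of all genes tested. Hspa5, the chaperone BiP of the endoplasmic reticulum, was at 570 and 554 CPM in Ctrl and 1856 and 3018 CPM in KCl (log2 change 2.12, DESeq2 adjusted p = 0.0147). Dnajb1, a cytosolic cochaperone, was at 60.5 and 79.6 against 169 and 695 CPM (log2 change 2.62). Among 18 integrated stress response targets, 1 was higher at an unadjusted p of 0.05, beside 3.72% of all genes tested, a count close to that share. This was Atf4, the master regulator of amino acid stress, at 36.3 and 56.6 against 154 and 249 CPM (log2 change 2.12, DESeq2 adjusted p = 0.028). Its targets Ddit3, at 24.4 and 28.6 against 19.1 and 37.0 CPM, and Asns, at 146 and 145 against 126 and 206 CPM, overlapped between the groups.

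Of 15 genes of the m6A machinery, 3 were higher at an unadjusted p of 0.05, beside 3.72% of all genes tested. DESeq2 called none of them, beside 1.24% of all genes higher. The list median was 0.76 log2 in the replicate 1 libraries and 0.08 in the replicate 2 libraries. Ythdc1, the nuclear m6A reader, was at 24.1 and 25.9 CPM in Ctrl and 61.0 and 60.9 CPM in KCl (log2 change 1.29 ± 0.32, unadjusted p = 0.00894, DESeq2 adjusted p = 0.284). The others were the writer subunit gene Rbm15 (10.9 in both Ctrl libraries against 32.6 and 19.0 CPM) and the reader gene Ythdf3 (21.01 and 18.6 against 60.8 and 30.7 CPM). Mettl3 itself gave a log2 change of 0.18 ± 0.62.

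No dendritic mRNA or glutamate or GABA-A receptor gene passed a test, though several lay lower in both KCl libraries. None of 25 dendritic mRNAs, 22 glutamate receptor genes and 12 GABA-A receptor genes passed the unadjusted test in either direction. Both KCl libraries lay below both Ctrl libraries, by any amount, in 12 of 25 dendritic mRNAs, 8 of 22 glutamate receptor genes, 1 of 12 GABA-A receptor genes and 11 of 24 potassium channel genes, beside 19.4% of all genes tested, and above in 1, 3, 1 and 0, beside 19.3%. The median log2 change of the dendritic list was -0.65, made of -1.54 in the replicate 1 libraries and -0.15 in the replicate 2 libraries. Camk2a was at 3413 and 4881 CPM in Ctrl and 1175 and 4100 CPM in KCl, Map2 at 499 and 620 against 258 and 600 CPM, and Actb at 2696 and 2313 against 5226 and 3416 CPM. Actb was higher in both KCl libraries, and Camk2a and Map2 overlapped. Kif5a, a kinesin motor gene, was at 4679 and 4038 against 742 and 3904 CPM, without overlap (log2 change -0.91, unadjusted p = 0.334). Shank1, a postsynaptic scaffold, differed widely within groups, at 468 and 119 against 15.9 and 89.5 CPM, also without overlap (unadjusted p = 0.0607). The lowest library in the dendritic list is KCl replicate 1, the one with the fewest neuron marker counts. Of 24 potassium channel genes, Kcnv1, a modifier subunit, was lower (1.57 and 1.44 against 0.544 and 0.477 CPM).

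Genes at least 2-fold lower in both KCl libraries numbered 227, and DESeq2 called 8 genes lower. Hes5, the Notch target and repressor of neurogenesis, was at 4.76 and 9.57 CPM in Ctrl and 1.32 and 1.18 CPM in KCl (log2 change -2.52 ± 0.62, DESeq2 adjusted p = 0.0129). Of the other members of its list of 10, none passed in either direction, and Id3 was at 7.44 and 6.80 against 92.2 and 2.00 CPM. Zfp786, a zinc finger gene, was at 6.71 and 4.63 against 0.774 and 0.985 CPM (log2 change -2.69, DESeq2 adjusted p = 0.00368). Elk1, an ETS factor that works with SRF at immediate early promoters, was at 78.1 and 64.4 against 21.4 and 30.3 CPM (log2 change -1.46, unadjusted p = 0.0091, DESeq2 adjusted p = 0.216). Wnt7a, a Wnt ligand that promotes presynaptic assembly, was at 26.2 and 19.3 against 6.72 and 7.40 CPM (log2 change -1.69, unadjusted p = 0.00927). Elk1 and Wnt7a were chosen after their values were seen. Among the 74 protein-coding genes with both KCl libraries 2-fold below both Ctrl libraries, 19 (25.7%) had a zinc finger symbol (Zfp, Zkscan, Zscan or Zbtb), beside 2.76% of the 15500 protein-coding genes tested and 1.45% of those 2-fold above. That grouping was also made after the values were seen.

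Cytosolic ribosomal protein genes lay slightly lower. Of 83, 73 had both KCl libraries below both Ctrl libraries, beside 19.4% of all genes tested, and 3 (Rps12, Rps28 and Rps29) passed the unadjusted test at 2-fold. Their summed level was 31251 and 25125 CPM in Ctrl and 17024 and 20470 CPM in KCl. Nuclear respiratory chain genes had 50 of 91 below, with sums of 29601 and 22745 against 15494 and 21384 CPM. The 2 sums were lowest in KCl replicate 1. Reads mapping to several places were counted at each, so genes with many processed pseudogenes such as these are uncertain.

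The response was set beside that of WT neurites in the 8 neurite libraries, through the treatment by genotype term, which asks whether loss of Mettl3 goes with another response; genotype goes with mouse line and litter, so they cannot be told apart. No gene of 22311 passed (smallest adjusted p = 0.865). At an unadjusted p of 0.05 and 2-fold, 320 genes (1.43%) had a higher response in Mettl3 KO and 293 (1.31%) a lower one. Without Mettl3 KO KCl replicate 2, edgeR called 2705 higher and 2631 lower after adjustment, and none without any other of the 8 libraries. Of the 60 early-response genes, 37 had a lower fitted response in Mettl3 KO, beside 47.7% of all genes tested, with a median difference of -0.18 log2 against 0.04 over all genes. Jund had the lower one past that limit (difference -1.73, unadjusted p = 0.0464) and Bhlhe40 the higher one (1.00, unadjusted p = 0.0276). Bhlhe40, a circadian repressor gene, was at 13.1 and 13.3 CPM in Ctrl and 9.68 and 14.1 CPM in KCl in Mettl3 KO, and at 23.3 and 24.4 against 10.9 and 10.6 CPM in WT, so the WT libraries were the ones that differed by treatment. The SE of these differences was 0.89 for Npas4, 0.70 for Nr4a2 and 1.10 for Arc.

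**Figure D5:**
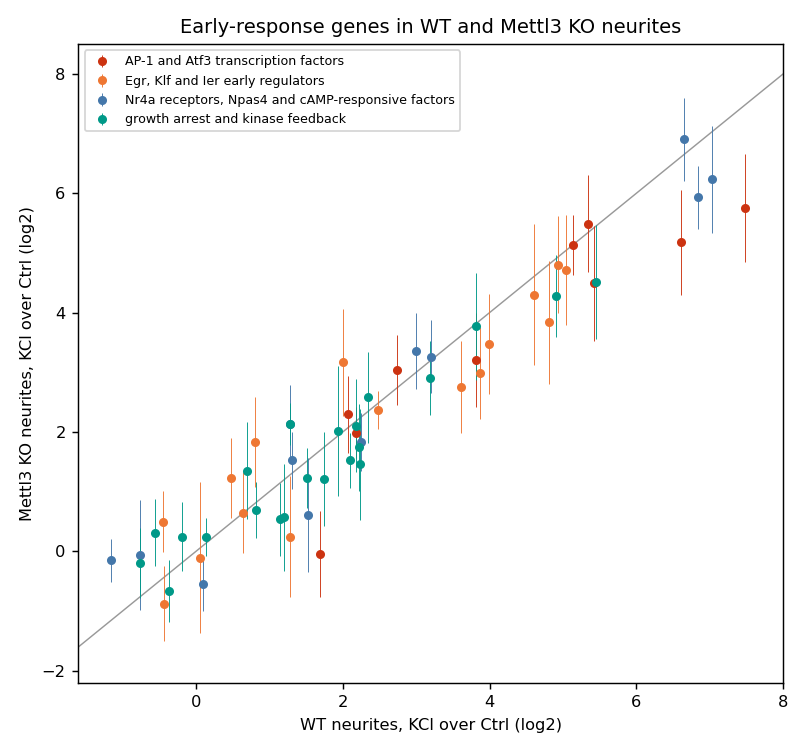
Log2 KCl over Ctrl of 60 early-response genes in WT neurites (x axis) and Mettl3 KO neurites (y axis), fitted in the 8 neurite libraries, with the SE of the difference between the 2 as bar; the grey line marks equal values. Genes of all 4 lists run along the line with 37 of the 60 below it.

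Values of single libraries show where the genotypes met. Npas4 in KCl neurites was at 316 and 1395 CPM in Mettl3 KO and at 720 and 917 CPM in WT, so WT lay between the KO replicates. Arc was at 350 and 2583 CPM in Mettl3 KO and 1381 and 2189 CPM in WT. Fosb, at 46.1 and 211 against 262 and 273 CPM, was lower in both KO libraries, with a difference in response of -1.72 ± 0.91 (unadjusted p = 0.0996). Pcsk1 was lower in Mettl3 KO under both conditions, at 0.914 and 1.27 against 5.17 and 5.60 CPM in Ctrl and 32.5 and 56.2 against 79.3 and 120 CPM in KCl, and its response was higher by 1.13 ± 0.49 (unadjusted p = 0.0547). Of the genes with the smallest unadjusted p, Pim3, a serine kinase, was at 25.4 and 25.7 CPM in Mettl3 KO Ctrl, 92.7 and 119 CPM in Mettl3 KO KCl, 25.5 and 25.4 CPM in WT Ctrl and 44.9 and 49.9 CPM in WT KCl (difference 1.16 ± 0.28, unadjusted p = 0.0045). Fam13c was at 22.0 and 28.0 CPM and then 55.9 and 54.7 CPM in Mettl3 KO, and at 35.7 and 38.6 CPM and then 30.7 and 34.9 CPM in WT (difference 1.32 ± 0.29). Bc1, a dendritic non-coding RNA that represses translation, went the other way, at 4.29 and 6.63 CPM in Ctrl and 1.02 and 1.82 CPM in KCl in Mettl3 KO, against 11.1 and 10.98 CPM and then 16.2 and 22.1 CPM in WT (difference -2.74 ± 0.55, unadjusted p = 0.00161). Lhfpl2, Gm10126 and Gm10059 completed the smallest p-values. None of these passed adjustment by edgeR (adjusted p = 0.865 for each). Oligodendrocyte lineage markers summed to 6495 CPM in Mettl3 KO KCl replicate 1 and 72.8 to 114 CPM in the WT neurite libraries, and their part in these differences was not tested.

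Beside the soma of the same inserts, the response in neurites was tested gene by gene. No gene of 23099 passed the treatment by compartment term (smallest adjusted p = 1.00), with 53 genes (0.229%) higher in neurites and 457 (1.98%) lower at an unadjusted p of 0.05 and 2-fold. After adjustment, edgeR called 307 higher and 1647 lower without Ctrl neurite replicate 1 and 270 and 1584 without Ctrl soma replicate 1, and 0 to 2 genes without any other of the 8. Of the 60 early-response genes, 46 had a fitted difference below 0, beside 53.6% of all genes tested, and Fosb, Egr3, Dusp4, Sik1, Trib1 and Spry2 passed the unadjusted limit. Dusp4, a MAP kinase phosphatase, gave the clearest case. It was at 19.8 and 12.5 CPM in Ctrl neurites and 28.8 and 103 CPM in KCl neurites, and at 13.9 and 7.998 CPM in Ctrl soma and 64.4 and 208 CPM in KCl soma (difference -1.67 ± 0.39, unadjusted p = 0.0037). Arc was nearer, at 381 and 2713 CPM in KCl neurites and 714 and 3195 CPM in KCl soma (difference -0.62 ± 0.49). In the other direction the smallest p belonged to Vtn, at 0.409 and 0.435 CPM in Ctrl neurites and 14.1 and 0.714 CPM in KCl neurites. Vtn is a vascular marker of the lists above and was high in KCl replicate 1.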

How the data were processed

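Neurite RNA (50 ng) was sequenced by the authors as 50 bp pairs, trimmed with Flexbar, aligned to mm10 with STAR 2.7.7a and assigned to exons of Ensembl genes with featureCounts 2.0.1, without strand and with reads of several positions counted at each. The deposited table holds raw counts per gene, and its gene length column, deposited by the authors, is in bases (unit other). The authors' tables of neurite enrichment (fold changes and adjusted p-values) and site positions were not used. The number of called DART-seq sites per RNA, as deposited by the authors, was used as a class only.

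Genes averaging 10 counts or more over the libraries of a comparison were tested, 22199 for the main one, 37 mitochondrially encoded genes being left out (their largest count was 0). Symbols were matched from GENCODE M21 for 22187 of the tested genes. Counts were scaled by TMM and fitted with edgeR 4.0.16 (quasi-likelihood test, two-sided, adjusted by Benjamini-Hochberg; R 4.3.3), with the 4 neurite libraries of Mettl3 KO in the main fit, the 8 neurite libraries for genotype and the 8 Mettl3 KO libraries with a term per insert for compartment. A call needed 2-fold and an adjusted p of 0.05. DESeq2 1.42.0, RLE scaling, other filters, wider sets of libraries, a replicate block and leaving out each library were alternatives, and the scripts were tested on simulated data. CPM use the effective library size of the fit concerned, so a gene's CPM differ slightly between comparisons. The members and gene lists were chosen with earlier results of these data known. Genes named are the largest separating changes and, where no gene is called, the 5 largest in each direction (at most 2 predicted genes or pseudogenes), the called or 3 highest members of each list, a set of fixed genes and the smallest p of each difference. Further genes, and members of the lists beyond these, were named after their values were seen. Replicates came from distinct litters, KCl and Ctrl from the same litter, but no label ties a replicate number to a litter. Counting error is small at 33789183 counts or more per library, and the spread between 2 libraries limits the precision. A few list members are not reported here by name.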

Additional observations from a re-analysis of the deposited data

How the results depend on the processing

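Of the settings tried on the response in Mettl3 KO neurites, a 1.5-fold limit, RLE scaling, a mean of 100 counts or more, the 8 Mettl3 KO libraries and leaving out Ctrl replicate 1 or Ctrl replicate 2 left the count of adjusted calls at 0, and the others did not. Adjusted calls were 275 higher and 8 lower with DESeq2, 838 and 47 with no filter on low counts, 13 and 0 in the 8 neurite libraries, 208 and 15 in the 16 libraries, and 349 and 44 in the 14 libraries left without the insert of KCl replicate 1. The settings chosen after seeing the data gave 287 and 40 (DESeq2 without KCl replicate 1) and 475 and 84 (8 neurite libraries without it). Genes past the unadjusted limit were 1484 higher and 392 lower with DESeq2, 2719 and 767 with no filter, 523 and 118 at a mean of 100 counts, 1557 and 835 in the 8 neurite libraries, 2058 and 857 in the 16 libraries, 933 and 948 in the 14, and 637 and 664 and 914 and 983 in the settings added later. In the 8 Mettl3 KO libraries 435 were lower. Leaving out each library in turn gave 0 to 3682 adjusted calls higher, 0 to 2529 lower, 162 to 4520 unadjusted higher and 15 to 3492 lower, the highest of each without KCl replicate 2. The cause was not tested, beyond that fewer samples enter these fits.

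The replicate numbers were also used as a replicate block, although no label says that they pair libraries (the replicate differences of Ctrl and KCl correlated at 0.169). The block gave 5 adjusted calls higher (Nr4a2, Fosb, Egr2, Pcsk1 and Nr4a1) and 0 lower, and 742 and 263 unadjusted. For the Mettl3 KO against WT difference the block gave 159 higher and 206 lower unadjusted and 0 adjusted. For neurites against soma, whose fit has the insert as block, no replicate block gave 22 higher and 39 lower.

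For Mettl3 KO against WT, no filter gave 410 higher and 33 lower adjusted and 2013 and 823 unadjusted, DESeq2 gave 670 higher unadjusted, the 16 libraries gave 581 higher, and a mean of 100 counts gave 127 and 122. Leaving out each library gave 0 to 2705 adjusted higher and 0 to 2631 lower, with 106 to 3584 and 97 to 3613 unadjusted. For neurites against soma, DESeq2 gave 1 higher and 1 lower adjusted and 1157 lower unadjusted, no filter gave 1 and 29 adjusted and 168 and 1767 unadjusted, and a mean of 100 counts gave 9 and 163. Leaving out each library gave 0 to 307 adjusted higher and 0 to 1647 lower, with 19 to 971 and 69 to 2671 unadjusted.

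Of 64 genes followed, 7 changed sign in a fit that left out a library and none in the other settings. Their log2 changes ran over those fits from -0.91 to 0.57 for Jund, -0.15 to 1.47 for Scg2, -0.20 to 0.87 for Rhob, -1.83 to 0.00075 for Camk2a, -1.12 to 0.12 for Map2, -0.41 to 0.59 for Mettl3 and -0.90 to 2.19 for Gfap. In the 14 libraries Jund was at 0.49, Map2 at 0.10, Mettl3 at -0.41 and Gfap at -0.90. In both settings added later, and in the 4-library fit without KCl replicate 1, Jund was at 0.52, Mettl3 at -0.40, Gfap between -0.87 and -0.88, and Map2 between 0.11 and 0.12. All of these libraries hold 33789183 counts or more, and the SD over genes of the log2 ratio of the replicates was 1.22 for KCl against 0.49 for Ctrl.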

Other observations

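The response was described by the number of m6A sites the authors called per RNA by DART-seq, pooled over their libraries. In DART-seq a YTH-guided deaminase edits cytosines beside m6A. Sites were called in WT libraries, by higher editing than in Mettl3 KO libraries and with a minimum read coverage. The classes thus describe methylation in WT neurons and not in the Mettl3 KO RNA measured here. Over 7161 protein-coding genes with no called site, 3607 with 1 to 3 and 1805 with 4 or more, all averaging 100 counts or more, the median log2 change was 0.25, 0.05 and -0.14. The 2 pairs of libraries ran in opposite directions. The medians were 0.45, -0.04 and -0.49 in the replicate 1 libraries and -0.06, 0.08 and 0.11 in the replicate 2 libraries. In these classes 1.52%, 2.25% and 2.27% of genes had both KCl libraries 2-fold above both Ctrl libraries. Both lay 2-fold below in 0.475%, 0.139% and 0.055%.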
